A study of Arabidopsis thaliana with 18 samples.

Results

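Transcripts of 10 genes that sense light or relay its signal were measured in dry seeds of Arabidopsis thaliana. They were the phytochrome genes PHYA (probe set AT1G09570_at), PHYB (AT2G18790_at), PHYC (AT5G35840_at), PHYD (AT4G16250_at) and PHYE (AT4G18130_at), the cryptochrome genes CRY1 (AT4G08920_at) and CRY2 (AT1G04400_at), the repressor genes COP1 (AT2G32950_at) and SPA1 (AT2G46340_at), and the transcription factor gene HY5 (AT5G11260_at). The members were chosen by gene name, with earlier results of these data known. They are 10 of the 27827 probe sets of the array, each probe set being named after 1 locus. The study compared the abci20 mutant, which is in the Col-0 background and for which the labels give no allele, with Col-0 itself. ABCI20 encodes a soluble ATP-binding cassette protein. Seeds of both genotypes were freshly harvested and dry, with no treatment named in the labels, and each of 3 biological replicates per genotype was a bulk of 8 plants from a block layout. Total, polysomal and monosomal RNA made 6 groups of 3 arrays, 18 arrays in all. Polysomal RNA is associated with several ribosomes and monosomal RNA with a single ribosome. All 10 loci carried the same symbols in the RefSeq gene table of the TAIR10.1 assembly. The sources used here do not give the genome build behind the probe sets, so no coordinates are printed.

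Phytochromes are red and far-red light receptors that carry a bilin chromophore and switch between an inactive and an active form. In seeds, phyB is known for germination that red light promotes and far-red light reverses, and phyA for germination of imbibed seeds under very weak or far-red light, with phyE and phyD in supporting roles. Cryptochromes are flavoprotein receptors of blue light. COP1 is a ubiquitin ligase that, together with SPA proteins, marks light-signalling transcription factors for degradation in darkness, and active receptors inhibit it. HY5, a bZIP transcription factor, is the best known of its targets and turns on light-induced genes when it accumulates. A dry seed holds stored messenger RNA made during maturation, so the values below describe the stock laid down before imbibition.

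The deposited values were log2 signals from robust multi-array averaging (RMA), running from 0.301 to 12.7, with no counts behind them. The number of arrays therefore limits the precision, and the median standard error of a difference was 0.291 on the log2 scale. A signal is relative to the other transcripts on its array, so a difference between fractions is a shift in relative abundance and not in the amount of RNA. ABCI20 lay at 1.10 to 2.40 in the 9 abci20 arrays and at 3.80 to 5.09 in the 9 Col-0 arrays, with no overlap. Within groups, arrays correlated at 0.957 to 0.987 over all probe sets, apart from replicate 1 of abci20 total RNA, which correlated at 0.893 and 0.915 with its partners. Of the seed markers, the 8 storage and late-embryo genes lay between 9.56 and 12.4 on every array. Their mean was lower in abci20 than in Col-0 on every monosomal array, at 11.74 to 11.82 against 11.85 to 11.92, and on every array of total RNA, at 11.50 to 11.740 against 11.743 to 11.88. The polysomal ranges overlapped. The endosperm gene EPR1 lay between 10 and 11.4, while ZOU, SUC5 and MEA stayed under 3.0 and the 4 seed coat markers averaged 1.54 to 2.56 per array. The leaf gene RBCS1A reached 6.49 to 7.21, while the green tissue genes RCA, CAB1, GAPB and PSAD-1 stayed between 1.19 and 4.62. The mean of the 5 green tissue markers was higher in abci20 than in Col-0 on every array of total RNA, at 3.41 to 3.71 against 3.20 to 3.35. It was also higher on every polysomal array, at 3.79 to 4.53 against 3.27 to 3.64, whereas the monosomal ranges of 3.74 to 3.90 and 3.37 to 3.76 overlapped. The part of these lists in the genotype results below was not tested.

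Apart from PHYC, the lowest position of any member on any array was the 68.0th percentile of signal, for PHYB. CRY2 stood at the 86.9th to 93.3rd percentile of its array, PHYE at the 80.4th to 95.2nd and PHYA at the 79.5th to 93.3rd. PHYC, a phytochrome that forms dimers with phyB, was at the 49.4th to 68.2nd percentile. These positions depend on each probe set's own response and do not rank the genes by transcript number.

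**Figure D1:**
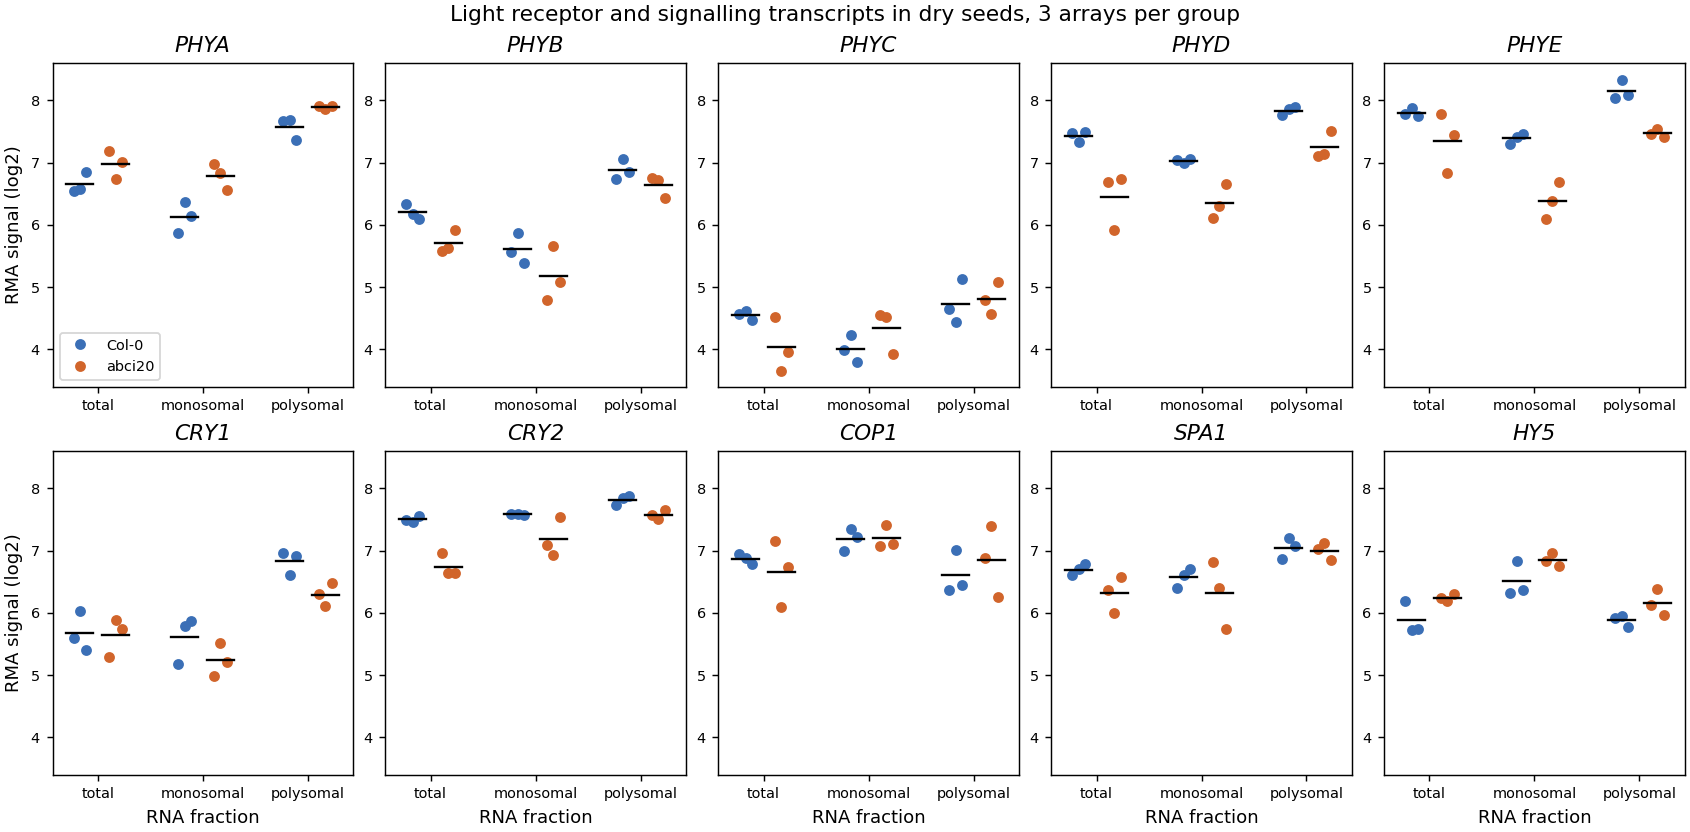
RMA signal (log2) of the 10 genes in total, monosomal and polysomal RNA of Col-0 (blue) and abci20 (orange); each point is 1 array, 3 per group, and the black line is the group mean. PHYD and PHYE points of abci20 lie mostly under those of Col-0. In both genotypes the mean is highest in polysomal RNA for every gene but COP1 and HY5.

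The first question was whether the mutant's dry seeds store other amounts of these transcripts. In total RNA, PHYD and CRY2 were lower in abci20 and no member was higher. In monosomal RNA PHYE was lower, and in polysomal RNA no member passed the test. Calls rest on limma fitted over all 18 arrays, with p-values adjusted by the Benjamini-Hochberg method over 27827 probe sets and a threshold of 0.05. In bulk seeds, fewer cells of a type and less RNA per cell cannot be told apart. In total RNA 2 of 10 members were called lower, beside 2.24% of all probe sets, and 0 of 10 higher, beside 1.11%. In monosomal RNA 1 of 10 was called lower, beside 0.744%, and 0 higher, beside 1.09%. In polysomal RNA the counts were 0 lower and 0 higher, beside 0.208% and 0.234%, and 3 of 10 members had an unadjusted p under 0.05 by limma, beside 7.95%. The median difference of the 10 members was -0.42 in total, -0.14 in polysomal and -0.31 in monosomal RNA, where the medians of all probe sets were 0.01, -0.01 and -0.03. The 3 calls ended when only the compared groups were fitted (adjusted p = 0.134 to 0.377).

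PHYD encodes a close relative of phyB that acts in the same red-light responses. In total RNA it measured 6.68, 5.92 and 6.74 in abci20 replicates 1, 2 and 3 and 7.48, 7.33 and 7.49 in Col-0. Every mutant array was below every Col-0 array, and replicate 2 of the mutant was the lowest. The difference was -0.98 (SE 0.223, 95% confidence interval -1.45 to -0.52), a 1.98-fold lower level with an adjusted p of 0.0213. The call was lost without abci20 replicate 2 (-0.72, adjusted p = 0.0857), without Col-0 replicate 1 (-0.96, adjusted p = 0.0675) and without Col-0 replicate 3 (-0.96, adjusted p = 0.0817). Leaving out replicate 1 of abci20 total RNA, the array that stood apart, gave -1.10 with an adjusted p of 0.00921. The polysomal values were 7.11, 7.14 and 7.50 in abci20 and 7.77, 7.86 and 7.89 in Col-0. Monosomal values were 6.12, 6.30 and 6.65 against 7.04, 6.99 and 7.05. In both ribosomal fractions the groups again did not overlap, with the mutant below. The differences of -0.59 (adjusted p = 0.416) and -0.67 (adjusted p = 0.138) did not pass the test.

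PHYE encodes the phytochrome that, with phyB and phyD, suppresses flowering and internode elongation. Its monosomal signal was 6.10, 6.38 and 6.69 in abci20 and 7.30, 7.41 and 7.46 in Col-0. The groups did not overlap and the gap between them exceeded the range within either. The difference was -1.0 (SE 0.224, 95% confidence interval -1.47 to -0.53), a 2.0-fold lower level with an adjusted p of 0.0299. This call was lost when abci20 replicate 1 (-0.85, adjusted p = 0.128), abci20 replicate 2 (-0.99, adjusted p = 0.112), Col-0 replicate 1 (-1.04, adjusted p = 0.0827), Col-0 replicate 2 (-0.99, adjusted p = 0.0628) or Col-0 replicate 3 (-0.97, adjusted p = 0.0900) was left out. It was also lost when each array was centred on its median (-0.98, adjusted p = 0.0757). In polysomal RNA the values were 7.47, 7.54 and 7.41 against 8.04, 8.33 and 8.09, again without overlap. That difference was -0.68 (95% confidence interval -1.15 to -0.21, adjusted p = 0.299). In total RNA abci20 measured 7.78, 6.84 and 7.44 and Col-0 7.79, 7.87 and 7.75. There, abci20 replicate 1 lay inside the Col-0 range, and the difference was -0.46 (adjusted p = 0.309). Leaving that array out gave -0.67 with an adjusted p of 0.0639.

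PHYA encodes the light-labile phytochrome that accumulates in darkness, and it lay on the other side of Col-0. Its monosomal signal was 6.98, 6.83 and 6.56 in abci20 and 5.87, 6.38 and 6.15 in Col-0. All 3 mutant arrays were above all 3 Col-0 arrays. The difference was 0.66 (SE 0.200, 95% confidence interval 0.24 to 1.08), or 1.58-fold, with an adjusted p of 0.104. It passed when only the 13913 brighter probe sets were tested (adjusted p = 0.0373) and with a variance trend and robust estimation (adjusted p = 0.0470). In polysomal RNA, abci20 measured 7.92, 7.86 and 7.90 and Col-0 7.68, 7.68 and 7.36, a difference of 0.32 (adjusted p = 0.835) without overlap. In total RNA the values of 7.18, 6.74 and 7.0 overlapped with 6.54, 6.58 and 6.84, and the difference was 0.32 (adjusted p = 0.453).

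PHYB, the main phytochrome of light-grown plants, was 5.58, 5.63 and 5.92 in abci20 total RNA and 6.33, 6.18 and 6.09 in Col-0. These groups did not overlap, but the difference of -0.49 (95% confidence interval -0.96 to -0.02) had an adjusted p of 0.267. Its polysomal and monosomal values overlapped between genotypes, with differences of -0.25 (adjusted p = 1.0) and -0.43 (adjusted p = 0.402). For PHYC, all 3 fractions overlapped. Its differences were -0.51 in total, 0.08 in polysomal and 0.33 in monosomal RNA, with adjusted p-values of 0.327, 1.0 and 0.632.

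CRY2, the blue-light receptor best known for photoperiodic flowering, was the second member lower in total RNA. It measured 6.96, 6.63 and 6.64 in abci20 and 7.49, 7.47 and 7.56 in Col-0. The highest mutant array was below the lowest Col-0 array by more than the range of either group. The difference was -0.76 (SE 0.185, 95% confidence interval -1.15 to -0.37), a 1.70-fold lower level with an adjusted p of 0.0306. The call held without abci20 replicate 1 (-0.87, adjusted p = 0.0106). It was lost without abci20 replicate 2 (-0.71, adjusted p = 0.0928) or 3 (-0.71, adjusted p = 0.0777), and without Col-0 replicate 1 (-0.77, adjusted p = 0.0803), 2 (-0.78, adjusted p = 0.0682) or 3 (-0.74, adjusted p = 0.107). Quantile normalization also ended it (-0.63, adjusted p = 0.0631). In polysomal RNA, 7.57, 7.51 and 7.65 in the mutant faced 7.74, 7.85 and 7.88 in Col-0, a non-overlapping difference of -0.24 (adjusted p = 0.953). Monosomal RNA gave 7.08, 6.93 and 7.55 against 7.60, 7.60 and 7.57, also without overlap, and a difference of -0.40 (adjusted p = 0.321). CRY1, the receptor that dominates blue-light control of seedling growth, had polysomal values of 6.30, 6.10 and 6.48 in abci20 and 6.97, 6.60 and 6.91 in Col-0. These did not overlap, and the difference was -0.53 (95% confidence interval -1.05 to -0.02, adjusted p = 0.599). In total and monosomal RNA CRY1 overlapped, with differences of -0.04 (adjusted p = 0.959) and -0.37 (adjusted p = 0.534).

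COP1 showed no called genotype difference in any fraction, at -0.21, 0.24 and 0.01 in total, polysomal and monosomal RNA (adjusted p = 0.784, 1.0 and 0.993). The 95% confidence intervals were -0.83 to 0.40, -0.38 to 0.85 and -0.60 to 0.63, so differences of that size in either direction remained possible. Its mutant replicates spread more than those of any other member in polysomal RNA (6.88, 7.39 and 6.26) and in total RNA (7.15, 6.09 and 6.74). SPA1, a COP1 partner that is most active in seedlings under far-red light, was 6.37, 6.0 and 6.58 in abci20 total RNA and 6.61, 6.70 and 6.78 in Col-0. There was no overlap, and the difference was -0.38 (adjusted p = 0.456). In polysomal and monosomal RNA SPA1 differed by -0.05 (adjusted p = 1.0) and -0.25 (adjusted p = 0.711). HY5 lay above Col-0 by 0.36, 0.28 and 0.35 in total, polysomal and monosomal RNA, with adjusted p-values of 0.391, 0.925 and 0.459. Its polysomal values of 6.13, 6.39 and 5.96 in abci20 and 5.92, 5.95 and 5.78 in Col-0 were the ones that did not overlap.

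**Figure D2:**
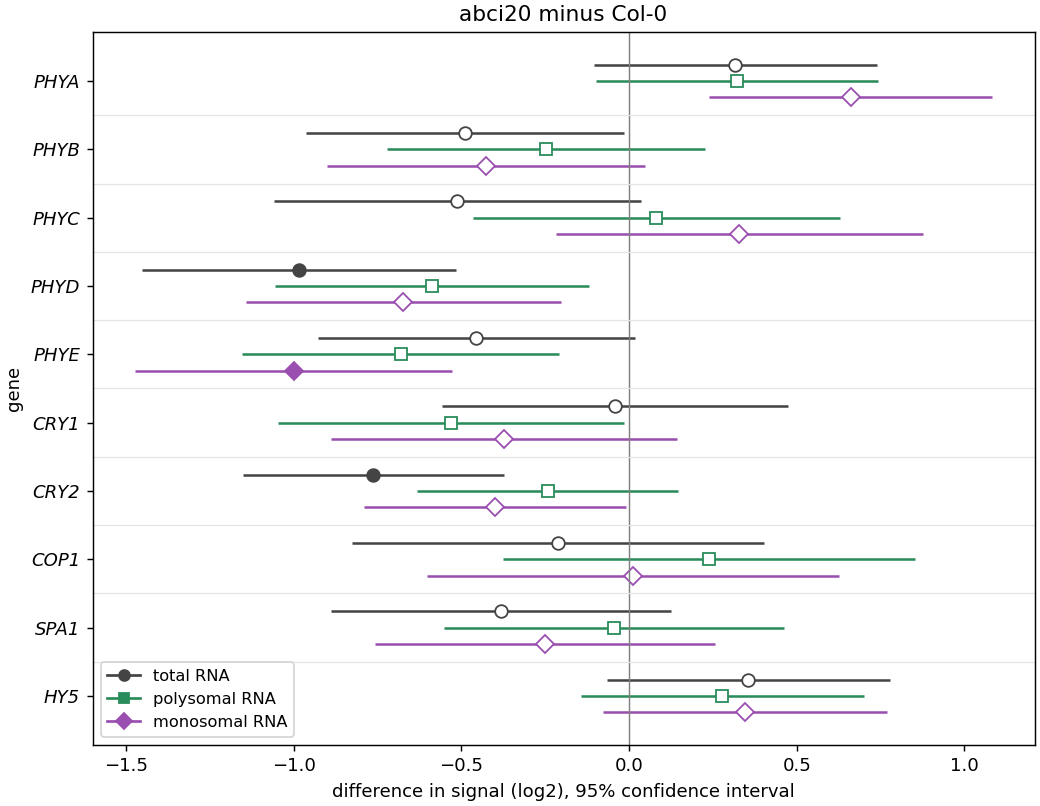
Difference in RMA signal (log2) between abci20 and Col-0 for each gene in total (grey circles), polysomal (green squares) and monosomal RNA (purple diamonds); bars are 95% confidence intervals from limma, n = 3 arrays per group, and filled symbols passed the test. Filled symbols are PHYD and CRY2 in total RNA and PHYE in monosomal RNA, all below 0.

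Counted by overlap alone, 4 members lay below Col-0 and 0 above in total RNA, where 10% and 6.76% of all probe sets did so. In polysomal RNA 4 lay below and 2 above, beside 11% and 10.3%. Monosomal RNA had 3 below and 1 above, beside 10.3% and 9.52%. The 3 fractions of a genotype were drawn from the same seed lots if like replicate numbers mark the same bulk, so they do not repeat the comparison independently. Averaging the 3 fractions of each replicate number gave 3 values against 3, a comparison added after the data were seen. Each replicate number of a genotype was taken as 1 bulk there, which the labels do not state outright. On that average PHYD was 6.64, 6.45 and 6.97 in abci20 and 7.43, 7.39 and 7.48 in Col-0, a difference of -0.75 (SE 0.165, adjusted p = 0.0309). PHYE was 7.11, 6.92 and 7.18 against 7.71, 7.87 and 7.77, a difference of -0.71 (SE 0.147, adjusted p = 0.0243). Both genes were lower in every mutant bulk. These were 2 of 10 members, beside 4.67% of all probe sets called in either direction. The PHYD call ended without abci20 bulk 1 or 2 or any Col-0 bulk (adjusted p = 0.0724 to 0.126), and the PHYE call without abci20 bulk 2 or any Col-0 bulk (adjusted p = 0.0736 to 0.105). CRY2 averaged -0.47 (adjusted p = 0.0986) and PHYA 0.43 (adjusted p = 0.129). On this average 5 members lay wholly below Col-0 (PHYB, PHYD, PHYE, CRY1 and CRY2) and 2 wholly above (PHYA and HY5), beside 12.9% and 10.9% of all probe sets.

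The second question was how the transcripts were spread over ribosomes. Within a genotype the fraction comparisons share arrays, so their values are given side by side. The receptor transcripts PHYA, PHYB, PHYD, PHYE and CRY1 were called higher in polysomal than in monosomal RNA of both genotypes. HY5 was called lower in polysomal than in monosomal RNA of abci20 (-0.69, adjusted p = 0.0348). Its difference in Col-0 had the same sign and a like size but missed the threshold (-0.62, adjusted p = 0.0509). In Col-0 5 of 10 members were higher, beside 8.20% of all probe sets, and 0 lower, beside 4.25%. In abci20 5 were higher, beside 7.31%, and 1 lower, beside 3.45%. The members' median difference (log2) was 0.74 in Col-0 and 0.79 in abci20, where all probe sets had medians of -0.13 and -0.11.

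PHYA had monosomal values of 5.87, 6.38 and 6.15 and polysomal values of 7.68, 7.68 and 7.36 in Col-0. Every polysomal array was above every monosomal array. The difference was 1.44 (SE 0.200, 95% confidence interval 1.02 to 1.86), or 2.71-fold, with an adjusted p of 0.00025. In abci20, with monosomal values of 6.98, 6.83 and 6.56 and polysomal values of 7.92, 7.86 and 7.90, it was 1.10 (adjusted p = 0.0019). PHYB rose from 5.56, 5.87 and 5.39 to 6.74, 7.06 and 6.85 in Col-0, by 1.28 or 2.42-fold (SE 0.225, adjusted p = 0.00155). In abci20 it rose from 4.79, 5.67 and 5.08 to 6.75, 6.73 and 6.43, by 1.46 or 2.74-fold (adjusted p = 0.000613). For both genes the fractions did not overlap in either genotype, and the calls held in each of 15 alternative settings per genotype.

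PHYD was 7.04, 6.99 and 7.05 in monosomal and 7.77, 7.86 and 7.89 in polysomal RNA of Col-0, a difference of 0.81 (adjusted p = 0.0247). PHYE was 7.30, 7.41 and 7.46 in monosomal and 8.04, 8.33 and 8.09 in polysomal RNA, a difference of 0.76 (adjusted p = 0.0339). Neither gene's fractions overlapped. In Col-0, though, 3 calls of the 5 were left when any 1 of the 6 compared arrays was left out. Those of PHYD and PHYE ended each time (adjusted p = 0.0537 to 0.0825 and 0.0610 to 0.128), and both also ended after quantile normalization (adjusted p = 0.0632 and 0.0557). In abci20 the PHYD difference was 0.90 (adjusted p = 0.0152) and that of PHYE 1.08 or 2.12-fold (adjusted p = 0.00481). The PHYD call in abci20 ended without monosomal replicate 1 (0.78, adjusted p = 0.0674) or polysomal replicate 3 (0.77, adjusted p = 0.0779). PHYC differed by 0.73 in Col-0 (adjusted p = 0.0747) and 0.48 in abci20 (adjusted p = 0.260), and did not pass.

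CRY1 was also higher in polysomal RNA. Its Col-0 values were 5.18, 5.78 and 5.87 in monosomal and 6.97, 6.60 and 6.91 in polysomal RNA. The difference was 1.22 or 2.32-fold (SE 0.245, adjusted p = 0.00386), and in abci20 1.06 (adjusted p = 0.0100), where it ended without polysomal replicate 3 (0.96, adjusted p = 0.0510) or after quantile normalization (0.77, adjusted p = 0.0823). CRY2 differed by 0.23 (95% confidence interval -0.16 to 0.62, adjusted p = 0.417) in Col-0 and 0.39 (0.00 to 0.78, adjusted p = 0.198) in abci20. A direct test between CRY1 and CRY2 was not made.

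COP1 differed by -0.58 in Col-0 and -0.36 in abci20, with overlap of the fractions in both genotypes (adjusted p = 0.193 and 0.468). SPA1 differed by 0.47 (adjusted p = 0.200) in Col-0 and 0.68 (adjusted p = 0.0824) in abci20, higher in polysomal RNA without overlap in both. HY5 was the member called lower in polysomal RNA. In abci20 it measured 6.84, 6.96 and 6.76 in monosomal and 6.13, 6.39 and 5.96 in polysomal RNA. The groups did not overlap, and the difference was -0.69 (SE 0.200, 95% confidence interval -1.11 to -0.27, adjusted p = 0.0348). The call held without polysomal replicate 2 and ended without any other of the 6 arrays (adjusted p = 0.0628 to 0.138). It also ended after median centring (adjusted p = 0.0752) and with each replicate number of a genotype, taken as 1 seed bulk, as a block (adjusted p = 0.0521). In Col-0 the values were 6.31, 6.84 and 6.36 against 5.92, 5.95 and 5.78, a difference of -0.62 with an adjusted p of 0.0509. That difference passed with the replicate number as a block (adjusted p = 0.0499) and after quantile normalization (-0.89, adjusted p = 0.00895).

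**Figure D3:**
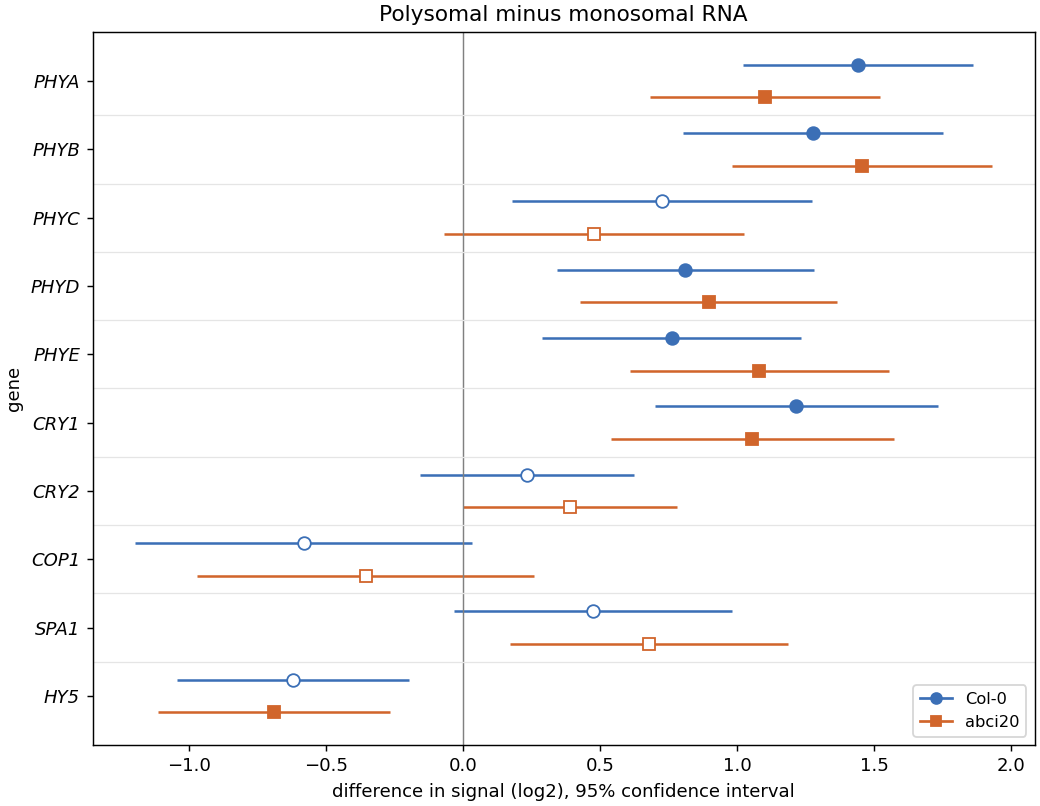
Difference in RMA signal (log2) between polysomal and monosomal RNA in Col-0 (blue circles) and abci20 (orange squares); bars are 95% confidence intervals from limma, n = 3 arrays per group, and filled symbols passed the test. PHYA, PHYB, PHYD, PHYE and CRY1 are filled and above 0 in both genotypes, and HY5 is filled and below 0 in abci20.

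Against total RNA, the relative signals of PHYA (0.91, adjusted p = 0.0142) and CRY1 (1.15, adjusted p = 0.0127) were higher in polysomal RNA of Col-0. These were 2 of 10 members higher, beside 4.06% of all probe sets, and 0 were lower, beside 3.07%. The PHYA call ended without polysomal replicate 1 or 2 or total replicate 2 (adjusted p = 0.0566 to 0.0645), and the CRY1 call without polysomal replicate 1 or 3 (adjusted p = 0.0607 and 0.0573). Both calls ended after quantile normalization. In abci20, PHYA (0.92, adjusted p = 0.00531), PHYB (0.93, adjusted p = 0.0094), PHYC (0.77, adjusted p = 0.0423), PHYD (0.80, adjusted p = 0.0181) and CRY2 (0.83, adjusted p = 0.00595) were higher in polysomal than in total RNA. These were 5 of 10, beside 11.9% of all probe sets, and 0 were lower, beside 10.2%. All 5 passed also without replicate 1 of abci20 total RNA. With only the compared groups fitted, 0 members passed, and the probe sets called fell from 6149 to 1590. Quantile normalization left 1 member called. PHYC ended without any 1 of the other 5 arrays (adjusted p = 0.0508 to 0.179) and with the replicate number as a block (adjusted p = 0.0507), and PHYD without polysomal replicate 3 (0.68, adjusted p = 0.0788) or total replicate 2 (0.54, adjusted p = 0.0945). Centring each array on its median raised the median of all probe sets in this contrast by 0.21 in Col-0 and 0.32 in abci20.

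PHYC, with the lowest array position of the 10, was 4.79, 4.56 and 5.09 in polysomal and 4.53, 3.65 and 3.96 in total RNA of abci20. In Col-0 its 4.64, 4.43 and 5.13 overlapped with 4.57, 4.62 and 4.48. CRY2, with 7.57, 7.51 and 7.65 against 6.96, 6.63 and 6.64 in abci20, had 7.74, 7.85 and 7.88 against 7.49, 7.47 and 7.56 in Col-0. There the difference was 0.31 (adjusted p = 0.315). PHYE and HY5 were close to their total level in polysomal RNA of abci20, at 0.12 and -0.08 (adjusted p = 0.741 and 0.817).

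In monosomal against total RNA of Col-0, no member passed limma's test in either direction, beside 3.20% of all probe sets higher and 3.45% lower, and 4 of 10 had an unadjusted p under 0.05, beside 23.3%. Without overlap, 5 of 10 members lay below their total level, beside 12.1% of all probe sets, and 3 above, beside 15.5%. The 5 were the phytochromes, with differences from -0.41 for PHYD to -0.59 for PHYB (adjusted p = 0.122 to 0.289). HY5 was 0.62 higher, also without overlap (adjusted p = 0.0729). In abci20, PHYE was lower, with a difference of -0.96 (SE 0.224, adjusted p = 0.00928), which was 1 of 10 beside 6.58%. HY5 was higher by 0.61 (SE 0.200, adjusted p = 0.0494), which was 1 of 10 beside 8.15%. Without overlap, PHYE alone lay below its total level in abci20, beside 2905 of 27827 probe sets, and HY5 alone above, beside 4121. The other phytochromes overlapped there, at -0.18 for PHYA, -0.53 for PHYB, 0.29 for PHYC and -0.09 for PHYD. The PHYE call held without any 1 of the 6 arrays but ended after median centring (-0.66, adjusted p = 0.0737) and with only the compared groups fitted (adjusted p = 0.157). The HY5 call ended when any 1 of them was left out, with adjusted p-values of 0.0508 to 0.135. Without replicate 1 of abci20 total RNA, CRY2 (0.55, adjusted p = 0.0424) passed in its place.

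The order of the groups differed between genes. Polysomal RNA of abci20 or Col-0 ranked first in mean level for all members but COP1 and HY5, for which monosomal RNA of abci20 did. For PHYA the polysomal means of 7.89 ± 0.03 in abci20 and 7.57 ± 0.19 in Col-0 (SD, n = 3) led, and the lowest mean was 6.13 ± 0.25 in Col-0 monosomal RNA. For PHYE, polysomal RNA of Col-0 led with 8.15 ± 0.15, total RNA of Col-0 followed with 7.81 ± 0.06, and monosomal RNA of abci20 was lowest with 6.39 ± 0.30. The abci20 polysomal mean of 7.47 ± 0.07 and the Col-0 monosomal mean of 7.39 ± 0.08 were neighbours whose arrays overlapped. For HY5, abci20 monosomal RNA at 6.85 ± 0.10 and Col-0 monosomal RNA at 6.51 ± 0.29 overlapped at the top. The lowest HY5 means, 5.88 ± 0.09 in Col-0 polysomal and 5.89 ± 0.27 in Col-0 total RNA, overlapped as well.

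The third question was whether the mutant changed the spread of transcripts over the fractions. Tested as the genotype difference of each fraction contrast, 0 of 10 members and 0% of all probe sets passed in limma for polysomal against total, monosomal against total or polysomal against monosomal RNA. At an unadjusted p under 0.05 the counts were 0, 1 and 0 members and 1263, 2270 and 744 probe sets. The 1 member was PHYC, whose monosomal against total contrast was 0.84 higher in abci20 (95% confidence interval 0.07 to 1.62, adjusted p = 0.596). For CRY2, the polysomal against total contrast differed by 0.52 (-0.03 to 1.07, adjusted p = 0.999). For PHYE, the monosomal against total contrast differed by -0.54 (-1.21 to 0.12, adjusted p = 0.685). A member called in 1 genotype and not in the other is therefore not shown to differ between them.

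Genes around the members were followed in 7 lists of 49 genes: other photoreceptors, chromophore synthesis, phytochrome partners, cryptochrome partners, phytochrome-interacting factors (PIFs), transcription factors acting with HY5, and light-induced targets. These lists too were chosen with earlier results of these data known. In the genotype comparison 2 of 49 were higher and 1 lower in total RNA, beside 1.11% and 2.24% of all probe sets. In polysomal RNA 3 were higher and 0 lower, beside 0.234% and 0.208%, and in monosomal RNA 5 higher and 0 lower, beside 1.09% and 0.744%. The median differences were 0.0058, 0.10 and 0.12. The 8 HY5-regulated or otherwise light-induced targets held 1, 2 and 3 calls in total, polysomal and monosomal RNA, all of them higher. In all, 6 genes passed in at least 1 fraction and F3H alone in all 3. The shares of all probe sets passing in at least 1 or in all fractions were not computed, so these counts have no background.

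PIF1 encodes a basic helix-loop-helix factor that represses germination in darkness and is degraded after phytochrome activation. In total RNA it measured 7.45, 7.26 and 6.76 in abci20 and 5.58, 6.32 and 6.44 in Col-0. The groups did not overlap, here or in the ribosomal fractions. It was higher by 1.05 in total (SE 0.263, adjusted p = 0.0365) and by 1.25 in monosomal RNA (adjusted p = 0.0226), while the polysomal difference of 1.12 had an adjusted p of 0.0758. The total-RNA call ended without 5 of the 6 arrays, including replicate 1 of abci20 (0.90, adjusted p = 0.0560), and held only without abci20 replicate 3. The monosomal call ended without 5 of the 6 arrays (adjusted p = 0.0558 to 0.102). The other 10 factors of that list did not pass in any fraction. PIF6, chosen here after its values were seen, lay on the other side, at -1.25, -1.37 and -1.20 in total, polysomal and monosomal RNA (adjusted p = 0.0866, 0.177 and 0.125), without overlap in all 3. On the average over fractions PIF6 was called lower (-1.27, adjusted p = 0.00947) and PIF1 higher (1.14, adjusted p = 0.00869). On that average 4.67% of all probe sets were called in either direction.

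BBX20, a B-box protein that works with HY5, was 6.10, 5.64 and 5.28 in monosomal RNA of abci20 and 3.52, 4.04 and 4.10 in Col-0. That gap of 1.79 (SE 0.288, adjusted p = 0.00506) was 3.45-fold and held without any 1 array. In polysomal RNA it measured 5.03, 5.21 and 5.17 against 3.75, 3.80 and 3.71, a difference of 1.39 (adjusted p = 0.0435) whose call was lost without any 1 of the 6 compared arrays. In total RNA it was 0.95 (adjusted p = 0.0809), without overlap. The other 7 factors of that list did not pass in any fraction, and in monosomal RNA they ran from -0.85 to 1.33. On the average over fractions BBX20 was called higher (1.38, adjusted p = 0.00345). So was BBX24, named here after its values were seen (0.71, adjusted p = 0.0230).

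Among the targets, F3H and CHS encode flavonoid enzymes and ELIP1 a light-stress protein of the chloroplast. The other targets did not pass in any fraction. Of the 8 targets, 3 had a negative difference in polysomal RNA, 2 in monosomal RNA and 0 in total RNA. F3H was 7.32, 6.76 and 6.66 in abci20 and 5.02, 5.40 and 5.58 in Col-0 total RNA, a 3.0-fold difference of 1.58 (SE 0.225, adjusted p = 0.00111). It was higher also in polysomal RNA by 1.05 (adjusted p = 0.0491) and in monosomal RNA by 1.58 (adjusted p = 0.00195). CHS was 5.41, 5.03 and 5.0 against 2.87, 2.96 and 3.43 in polysomal RNA, higher by 2.06 (SE 0.404, adjusted p = 0.0327), and higher by 1.75 in monosomal RNA (adjusted p = 0.0342). In total RNA, where abci20 spread from 3.59 to 5.75, the CHS difference was 1.37 (adjusted p = 0.0747). ELIP1 was higher in monosomal RNA by 0.84 (SE 0.207, adjusted p = 0.0470), at 9.14, 9.02 and 8.87 against 8.15, 8.06 and 8.31. The polysomal calls of F3H and CHS and the monosomal calls of CHS and ELIP1 each ended in at least 5 of the 6 fits that left out 1 compared array (adjusted p = 0.0566 to 0.297), whereas F3H kept its calls in total and monosomal RNA in all 6.

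**Figure D4:**
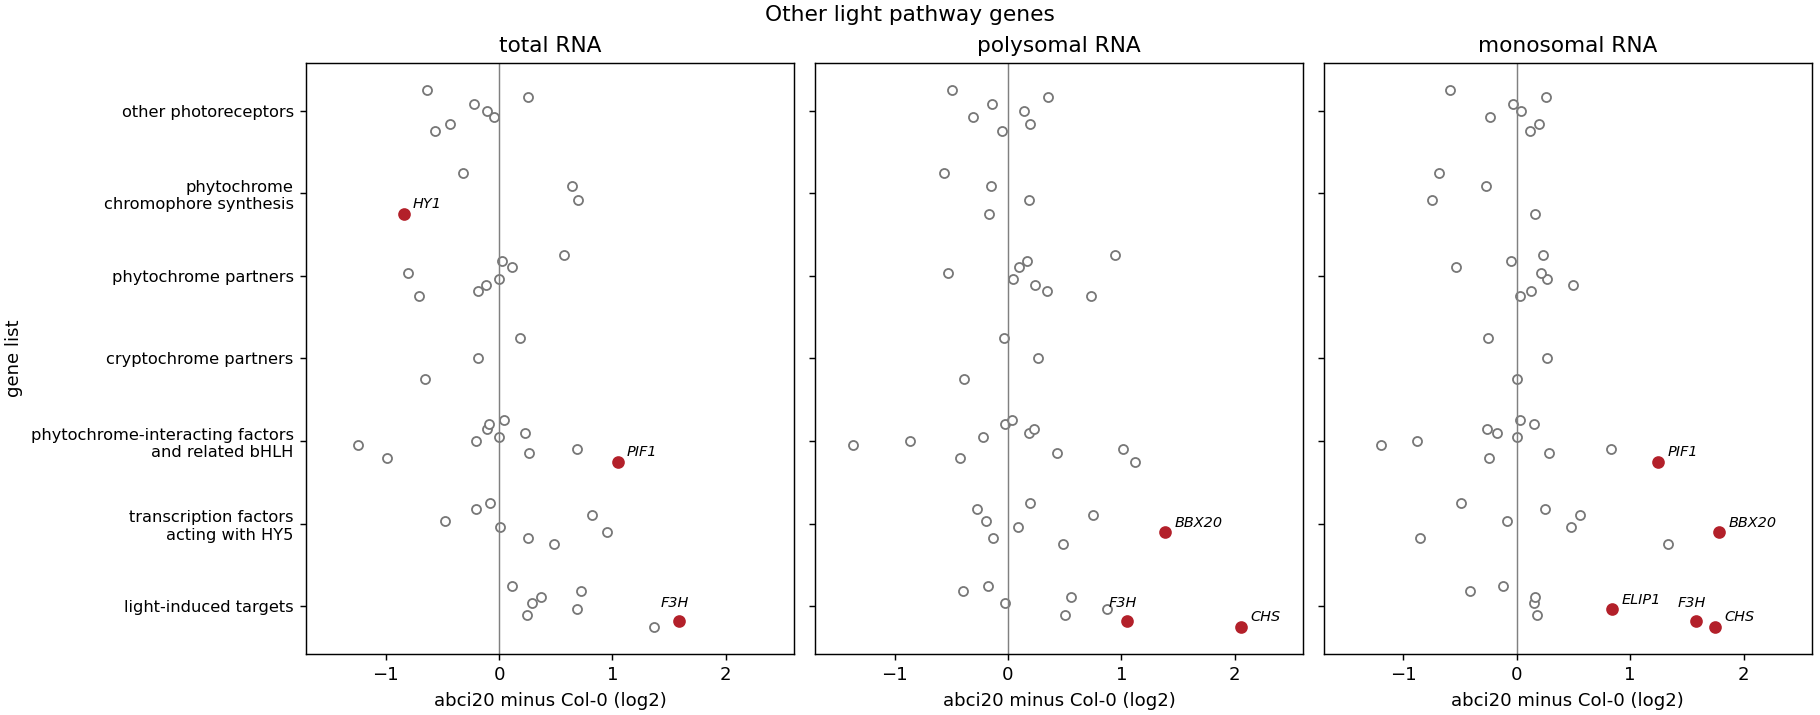
Difference in RMA signal (log2) between abci20 and Col-0 for the 49 further light pathway genes, by list (rows) and RNA fraction (panels); each point is 1 gene, and filled red points passed the test. Apart from HY1 in total RNA, every filled point is above 0.

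HY1, the haem oxygenase that starts synthesis of the phytochrome chromophore, was the 1 listed gene called lower in a single fraction. It was not called on the average over fractions (-0.28, adjusted p = 0.350). Total RNA gave 6.92, 7.07 and 6.92 in abci20 and 7.72, 7.82 and 7.88 in Col-0, without overlap. The difference was -0.84 (SE 0.174, adjusted p = 0.0141), and its call ended without Col-0 replicate 3 (-0.80, adjusted p = 0.0655). In polysomal and monosomal RNA HY1 differed by -0.17 and 0.16 (adjusted p = 1.0 and 0.747), with overlap. In the lists with no call, the 2 genes with the smallest p were named. LKP2, a blue-light-sensing F-box protein, was at -0.63 in total RNA (adjusted p = 0.0811) and non-overlapping in all 3 fractions, and the blue-light receptor kinase PHOT1 was at -0.57 (adjusted p = 0.247). Of the phytochrome partners, AT2G16365 was at 0.94 in polysomal RNA (adjusted p = 0.264) and PAT1, which acts in phyA signalling, at -0.80 in total RNA (adjusted p = 0.173). Of the cryptochrome partners, CIB1, a flowering regulator, was at -0.65 in total RNA (adjusted p = 0.574) and AT3G52740 at 0.26 in polysomal RNA (adjusted p = 0.991).

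In polysomal against monosomal RNA, 2 of the 49 genes were higher and 1 lower in Col-0, beside 8.20% and 4.25% of all probe sets. In abci20 1 was higher and 1 lower, beside 7.31% and 3.45%. The values of these 3 genes are given because they passed, so they were chosen after their values were seen. LKP2 was higher in both genotypes, by 0.62 in Col-0 and 0.71 in abci20 (adjusted p = 0.0431 and 0.0237). Its Col-0 values were 8.15, 8.06 and 8.23 in monosomal and 8.77, 8.79 and 8.74 in polysomal RNA, without overlap. PAT1 was higher in Col-0, by 1.43 (SE 0.307, adjusted p = 0.00586), a call that ended after quantile normalization (1.04, adjusted p = 0.0523), and differed by 0.68 in abci20 (adjusted p = 0.174). AT3G52740 was lower, at -0.81 in both genotypes (adjusted p = 0.0282 and 0.0301). The calls of LKP2 and AT3G52740 ended in 4 to 6 of the 6 fits without 1 array in each genotype, whereas that of PAT1 held in all 6.

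For each member, the probe set with the most similar profile over the 18 arrays was sought among all others, as a description in which the points share arrays and normalization. PHYD was most like its list neighbour LKP2 (Pearson r = 0.973), followed by AT3G03790 (0.970). PHYA was most like ERD4 (0.966) and AT3G14120 (0.963), and PHYB like AT2G28540 and SAMTL (both 0.947). The likest probe sets were KP1 (0.945) for PHYE, AT5G37670 (0.945) for HY5, AAE7 (0.941) for CRY2, AT3G06630 (0.935) for SPA1 and KUP7 (0.931) for CRY1. PHYC and COP1 had the weakest best matches, AT2G05590 (0.910) and AT1G58025 (0.906).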

How the data were processed

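The authors deposited 1 table of log2 signals for 18 arrays, made with RMA per the submitters' processing notes; its version was not given in the sources used here. Probe sets were named by locus, and 27241 of 27827 loci had an entry in the RefSeq table. Groups came from the sample labels. The log2 values were used as deposited, in R 4.3.3 with limma 3.58.1 and statmod 1.5.0: lmFit and eBayes on 6 group means over all 18 arrays (12 residual degrees of freedom), 12 comparisons, two-sided, Benjamini-Hochberg over all probe sets of a comparison. No probe set was filtered out. 1 further gene list is not reported here. The 10 members, the 49 further genes and the tests were chosen with earlier results of these data known. Named genes are all members, list genes past the threshold in a genotype comparison, and otherwise the 2 of a list with the smallest p. Per member the likest probe set is named, and for PHYA, PHYB and PHYD also the second. Alternatives were the replicate block, only the compared groups, quantile normalization, median centring, brighter probe sets, a variance trend, array weights and leaving out each array. The average over fractions, a seed-bulk block and leaving out replicate 1 of abci20 total RNA elsewhere were added after the data were seen. The first 2 take like replicate numbers of a genotype as 1 bulk. The fit was tested on simulated data. Replicate numbers were checked for pairing. Of 9 pairs of like-numbered arrays between genotypes, 3 had residuals correlated above 0.1 (-0.17 to 0.23), all of replicate 2. Of 18 between fractions of a genotype, 4 did (-0.06 to 0.24), all polysomal with monosomal RNA. No comparison had all its pairs above 0.1, so they were not treated as pairs. That rule does not show pairing to be absent. The main fit took all 18 arrays as independent, and the replicate block was an alternative. The labels name 3 biological replicates, and p-values measure the spread between these bulks and their arrays.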

Additional observations from a re-analysis of the deposited data

How the results depend on the processing

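The number of members called depended on the setting. With only the compared groups fitted, it was 0 for the genotype comparison in total RNA, 0 for that in monosomal RNA, and 0 for polysomal and for monosomal against total RNA of abci20. The probe sets called in these comparisons fell from 932, 510, 6149 and 4098 to 0, 25, 1590 and 523. Quantile normalization gave 1 in the total RNA genotype comparison, 0 for polysomal against total RNA in Col-0, and 1 each for polysomal and monosomal against total RNA in abci20. In the monosomal genotype comparison, median centring gave 0, brighter probe sets 2 and the variance trend 2. With brighter probe sets the probe sets called there rose from 510 to 1087. Brighter probe sets gave 1 for monosomal against total RNA in Col-0. Array weights gave 3 in the polysomal genotype comparison, where the probe sets called rose from 123 to 2657. They gave 1 for monosomal against total RNA in abci20, where the seed-bulk replicate block also gave 1. With the replicate number as a block, 2 members were called in total RNA, and no member count moved by over 1.5 times. The block ended the calls of F3H in polysomal RNA (1.05, adjusted p = 0.0661) and of PHYC in polysomal against total RNA of abci20 (0.77, adjusted p = 0.0507), and added HY5 in polysomal against monosomal RNA of Col-0 (-0.62, adjusted p = 0.0499). Leaving out single compared arrays gave 0 to 2 calls in total RNA, 0 to 1 in monosomal RNA, 0 to 2 for polysomal against total RNA in Col-0 and 3 to 5 in abci20, 1 to 2 for monosomal against total RNA in abci20, 3 for polysomal against monosomal RNA in Col-0 and 3 to 6 in abci20, and 0 to 2 for the average over fractions. Without replicate 1 of abci20 total RNA, which is outside that comparison, 7 members passed for polysomal against monosomal RNA in Col-0, with PHYC (adjusted p = 0.0408) and HY5 (adjusted p = 0.0402) added. Over the settings, the probe sets called in that comparison ran from 1730 to 5496, with 3467 in the main fit. They ran from 1475 to 7029 for polysomal against monosomal RNA in abci20 (2994 in the main fit). For polysomal against total RNA they ran from 426 to 4899 in Col-0 (1985) and from 1590 to 11135 in abci20 (6149). For monosomal against total RNA they ran from 637 to 3185 in Col-0 (1850) and from 523 to 7651 in abci20 (4098). Member counts without a probe set count at the same setting have no background.

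Signs turned only for differences that were not called. By quantile normalization these were CRY1 (0.029) in the total RNA genotype comparison, COP1 (-0.036) in the monosomal one, PHYC (-0.073) in polysomal against total RNA of Col-0, PHYE (-0.20) and COP1 (-0.16) in that of abci20, and SPA1 (-0.17) in monosomal against total RNA of abci20. Array weights turned the same CRY1 (0.026) and SPA1 (-0.086) differences. Centring turned HY5 (0.21 in Col-0, 0.25 in abci20) in polysomal against total RNA, CRY1 (0.071) and SPA1 (0.014) in monosomal against total RNA of Col-0, PHYA (0.12) and PHYD (0.20) in that of abci20, and COP1 (-0.039) in the average. Without single arrays the sign also turned, and the full ranges were PHYD (-0.36 to 0.053) and SPA1 (-0.24 to 0.29) in monosomal against total RNA in abci20, COP1 (-0.095 to 0.091) and SPA1 (-0.50 to 0.036) in the monosomal genotype comparison, COP1 (-0.038 to 0.53), PHYC (-0.069 to 0.28) and SPA1 (-0.14 to 0.032) in the polysomal genotype comparison, and COP1 (-0.10 to 0.48), HY5 (-0.19 to 0.021) and PHYE (-0.14 to 0.33) in polysomal against total RNA in abci20. They were CRY1 (-0.18 to 0.13) and COP1 (-0.46 to 0.075) in the total RNA genotype comparison, CRY1 (-0.20 to 0.15) in monosomal against total RNA in Col-0, PHYC (-0.020 to 0.33) and HY5 (-0.081 to 0.15) in polysomal against total RNA in Col-0, and COP1 (-0.055 to 0.11) and PHYC (-0.15 to 0.041) in the average over fractions. The cause was not tested.

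Centring moved the median of all probe sets by -0.14 in the total RNA genotype comparison and by 0.21, 0.32, 0.14 and 0.30 in polysomal and monosomal against total RNA of Col-0 and abci20 in turn (polysomal first). The share of calls over all probe sets that were higher went from 33.3% to 15.5% in the total and from 52.8% to 40.3% in the polysomal genotype comparison, from 57.0% to 79.0% and from 53.7% to 79.4% in polysomal against total RNA of Col-0 and abci20, from 48.1% to 66.1% and from 55.3% to 82.3% in monosomal against total RNA, and from 65.8% to 78.5% in polysomal against monosomal RNA of Col-0. Probe sets called numbered 932 (0 with only the compared groups to 2640 without abci20 total replicate 1), 123 (27 to 2657 with array weights) and 510 (25 to 1087) in the total, polysomal and monosomal genotype comparisons, and 1299 (347 to 1316) on the average over fractions. The genotype differences of fraction contrasts had up to 28, 208 and 2. With 3 arrays a group, a member has to differ by several times the standard error to pass, so a difference that missed the threshold is not shown to be 0.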
